A study of Homo sapiens with 6 samples.

Results

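The 78 genes described here carry the symbols of mitochondrial ribosomal proteins. They are the protein-coding genes whose symbol is MRPL or MRPS followed by a number, with an optional A, B or C, and they were drawn from the 60708 gene identifiers counted. MRPL symbols (49 genes) name large-subunit proteins and MRPS symbols (29 genes) name small-subunit proteins. MRPS36 is counted by its symbol, although its product is known as a part of the alpha-ketoglutarate dehydrogenase complex. Of the 78 genes, 77 had enough reads to be tested, and the remaining one, MRPL53, was listed at 0 counts in all 6 libraries. The libraries come from U2OS, an established human osteosarcoma line, used as wild-type cells. Control cells received the solvent DMSO (3 libraries). Treated cells, called PARGi here, received PDD00017273 at 25 µM (3 libraries). This compound inhibits PARG, poly(ADP-ribose) glycohydrolase, which takes poly(ADP-ribose) chains apart. Both treatments ran for 4 days, so the data cover 1 cell line, 1 dose and 1 time, and every library is a biological replicate per the series' design text.

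The mitochondrial ribosome, or mitoribosome, translates the few mRNAs that mitochondrial DNA encodes, all of which specify core subunits of the respiratory chain and ATP synthase. Its ribosomal RNAs are transcribed inside the organelle, whereas all of its proteins are encoded in the nucleus, made in the cytosol and imported. Some of these proteins have counterparts in the bacterial ribosome and others were added during the evolution of mitochondria.

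Depth ran from 60286931 to 80605145 counts per library, and scaling factors by the trimmed mean of M-values (TMM) were 0.9953 to 1.007. Of 20409 genes tested with edgeR's quasi-likelihood test, 24.3% passed a Benjamini-Hochberg adjusted p of 0.05, 13.2% higher and 11% lower in PARGi. Levels are given as TMM-scaled counts-per-million (CPM). Among 7 osteosarcoma and mesenchymal markers, COL1A1 was at 4128 to 4659 CPM with overlapping groups, and TWIST1 reached only 0.0333. RUNX2 was at 82.2 to 84.5 CPM in DMSO and 68.3 to 69.4 in PARGi, and COL1A2 at 11.6 to 14.3 and 6.65 to 7.98. VIM was at 2431 to 2541 CPM in DMSO and 2353 to 2396 in PARGi, and SPARC at 1657 to 1687 and 1571 to 1593. CD44 was at 82.9 to 86.1 CPM in DMSO and 109 to 119 in PARGi. The groups of these genes did not overlap, and all but CD44 were lower in PARGi. Of all tested genes, 19.8% had every PARGi library above every DMSO library, and 18.2% had every one below. The summed level of the 7 was 8396 to 8985 CPM in DMSO and 8531 to 8581 in PARGi. The summed level of 4 epithelial markers was 383 to 391 CPM in DMSO and 464 to 472 in PARGi. Most of it was KRT8 and KRT18, and both were higher in every PARGi library. The defining marker EPCAM was at 3.31 to 3.78 CPM in DMSO and lower, at 2.98 to 3.07, in PARGi, and CDH1 was at 0.691 to 0.739 and higher, at 0.906 to 1.29. The summed levels of 4 blood markers (1.09 to 1.36 CPM in DMSO, 1.19 to 1.32 in PARGi), 3 endothelial markers (2.85 to 3.67, 3.17 to 4.07) and 3 neural markers (7.32 to 7.61, 6.67 to 6.91) were low throughout. The part of these markers in the results was not tested. In bulk RNA, fewer cells of a type and less RNA per cell cannot be told apart.

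Promoter sequence was read for the mitoribosomal genes because promoters of nuclear genes for mitochondrial proteins are textbook sites of the transcription factors NRF1, the ETS family (GABP) and YY1. RefSeq windows on GRCh38.p14, from 250 bases before to 50 after the transcription start, matched 69 of the 78 genes. The 4 shown are those of the higher genes with the smallest p that hold an ETS or YY1 match in the first 280 bases. Capitals mark matches to CCGGAAG (ETS) or ATGGCGGC (YY1) on either strand. MRPL19 (chr2:75646533-75646812, plus strand) and MRPL1 (chr4:77862580-77862859, plus strand) hold the YY1 letters, MRPL16 (chr11:59810749-59811028, minus strand) the ETS letters, and MRPS18A (chr6:43687762-43688041, minus strand) both.
MRPL19: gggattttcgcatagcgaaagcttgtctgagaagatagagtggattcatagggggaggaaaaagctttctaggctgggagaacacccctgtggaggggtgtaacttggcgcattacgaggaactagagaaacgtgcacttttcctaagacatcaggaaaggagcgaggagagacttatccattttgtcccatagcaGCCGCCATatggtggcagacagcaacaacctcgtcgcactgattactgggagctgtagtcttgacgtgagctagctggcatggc
MRPL1: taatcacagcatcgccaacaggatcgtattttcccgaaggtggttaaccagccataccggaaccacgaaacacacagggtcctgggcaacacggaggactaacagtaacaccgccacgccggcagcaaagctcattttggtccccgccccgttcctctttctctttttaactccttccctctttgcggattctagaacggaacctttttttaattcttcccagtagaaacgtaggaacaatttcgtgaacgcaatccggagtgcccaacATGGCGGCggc
MRPL16: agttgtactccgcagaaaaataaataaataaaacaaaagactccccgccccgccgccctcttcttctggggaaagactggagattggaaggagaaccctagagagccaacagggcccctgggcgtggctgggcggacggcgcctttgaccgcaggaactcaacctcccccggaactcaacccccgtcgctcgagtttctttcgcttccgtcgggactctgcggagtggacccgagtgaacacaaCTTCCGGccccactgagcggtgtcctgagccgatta
MRPS18A: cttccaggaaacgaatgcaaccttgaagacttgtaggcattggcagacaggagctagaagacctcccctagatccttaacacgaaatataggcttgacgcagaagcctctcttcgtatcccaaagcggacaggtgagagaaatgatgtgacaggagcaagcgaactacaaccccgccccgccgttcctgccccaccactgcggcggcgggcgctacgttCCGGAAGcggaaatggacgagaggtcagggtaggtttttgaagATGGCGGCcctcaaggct

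In MRPL19 and MRPL16 the match lies on the reverse strand, so the capitals there read GCCGCCAT and CTTCCGG. The YY1 letters can also be read as a start codon followed by alanine codons. Over the whole 300-base windows, the ETS letters occurred in 29 of 69 mitoribosomal promoters (42.0%), against 17.7% of 11625 promoters of tested protein-coding genes and 10.7% of all 27305 promoters in the table. The YY1 letters occurred in 19 (27.5%), against 5.71% and 3.21%. The core letters of the NRF1 motif, TGCGCA, occurred in 14 (20.3%), against 12.8% and 8.42%, and the full NRF1 palindrome, which contains them, in 1 (1.45%), against 2.15% and 1.36%. The large-subunit promoters (42) held the ETS letters in 40.5% and the YY1 letters in 23.8%, and the small-subunit promoters (27) in 44.4% and 33.3%. By comparison, promoters of cytosolic ribosomal proteins held the ETS letters in 33.8% and the YY1 letters in 7.69%, and those of nuclear-encoded respiratory chain subunits in 29.4% and 17.6%. Among the mitoribosomal genes that rose in PARGi, 4 of 19 promoters held the ETS letters (21.1%) and 7 the YY1 letters (36.8%), and among the tested genes that did not pass, 24 of 49 (49.0%) and 12 (24.5%). These shares describe reference sequence only, and no binding was measured.

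Of the 77 tested mitoribosomal genes, 20 (26.0%) were higher in PARGi and 0 were lower in edgeR's quasi-likelihood test at an adjusted p of 0.05, where 13.2% of all tested genes were higher and 11% lower. Among protein-coding genes, 17.6% were higher and 12.2% lower. The changes were small: the 20 genes rose by 6.03% to 17.3%, and the median log2 fold change of the 77 was 0.039, beside -0.0070 over all tested genes and 0.011 over protein-coding genes. The estimate was above 0 for 58 of the 77, beside 9809 of 20409 tested genes and 7799 of 14504 protein-coding genes. At an unadjusted p of 0.05 in the same test there were 27 higher genes and 1 lower. That compares with 3761 higher and 3381 lower among all tested genes, and 3479 and 2515 among protein-coding genes. In 26 genes all 3 PARGi libraries lay above all 3 DMSO libraries (33.8%, against 19.8% of all tested and 25.4% of protein-coding genes). In 1 gene, MRPL48, all lay below (18.2% of all tested genes, and 2645 of 14504 protein-coding genes). With upper-quartile scaling in place of TMM, 12 were higher and 1 lower, against 9.81% and 14.4% of all genes, and without PARGi replicate 3 the higher genes numbered 13. Under upper-quartile scaling 40.5% of the called genes of the whole transcriptome were higher, against 54.5% under TMM. All 20 kept an estimate above 0 in every one of 18 other fits.

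**Figure D1:**
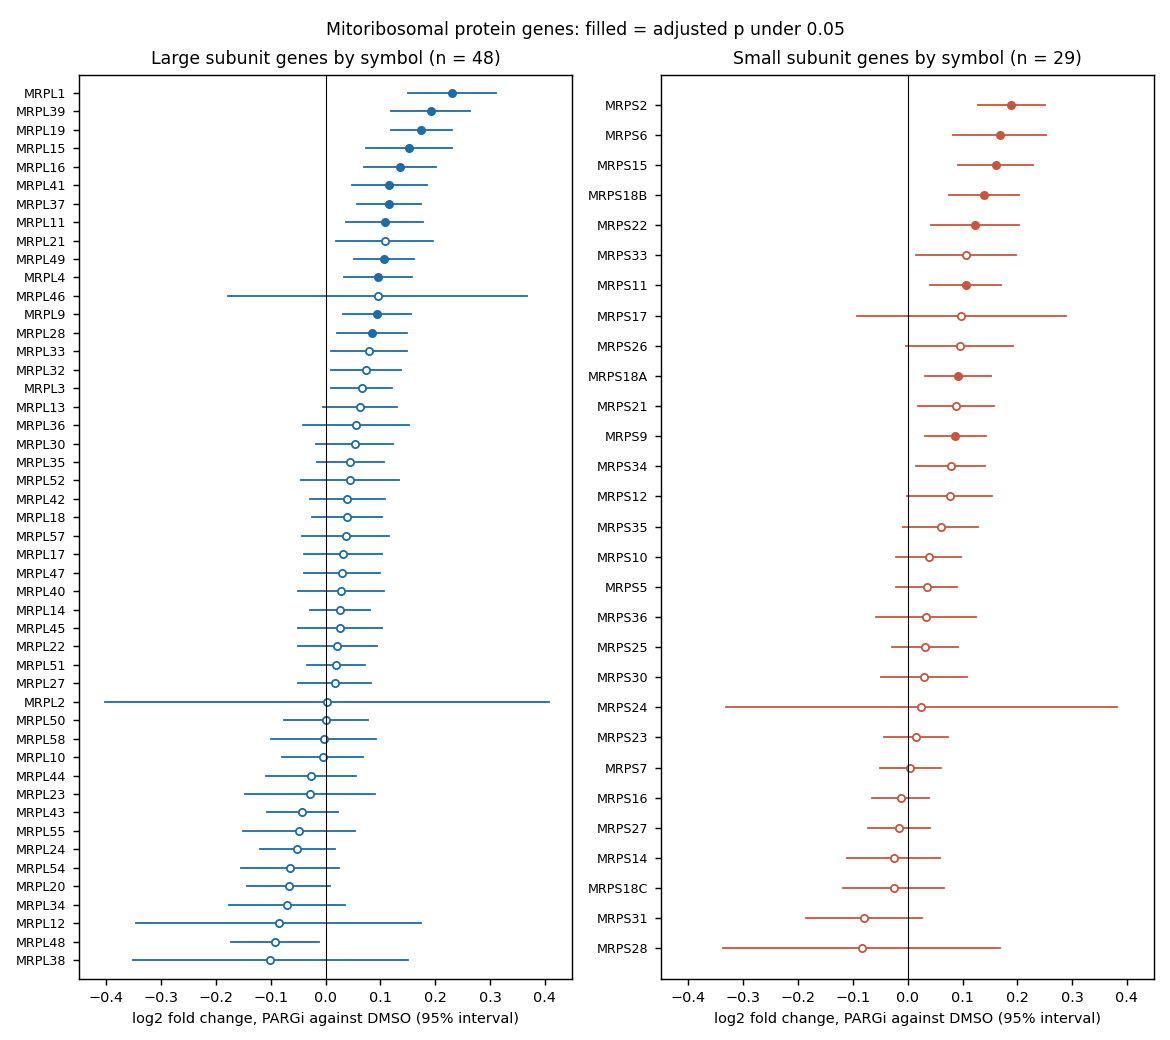
Log2 fold change of PARGi against DMSO (x axis, with its 95% interval) for each tested gene, large subunit on the left (48 genes) and small subunit on the right (29 genes). Filled points passed an adjusted p of 0.05; the 12 filled points of the large subunit and the 8 of the small subunit all lie above 0.

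Similar shares of the large-subunit and small-subunit genes rose. In the large subunit 12 of 48 tested genes rose (25%), with a median log2 fold change of 0.037, and in the small subunit 8 of 29 (27.6%), with a median of 0.060. Summed over its genes, the large subunit stood at 2142, 2120 and 2090 CPM in DMSO replicates 1, 2 and 3, and at 2222, 2177 and 2209 CPM in PARGi replicates 1, 2 and 3. Every PARGi library was above every DMSO library, a difference of 4.02% between the means of 2117 ± 26.3 and 2203 ± 23.3 (SD, n = 3 each). The small subunit stood at 1436, 1435 and 1425 CPM in DMSO and at 1488 in each PARGi library, a difference of 3.90% between 1432 ± 6.15 and 1488 ± 0.107. The groups did not overlap there either. For both subunits summed, the log2 ratio of 0.056 was 0.031 with upper-quartile scaling. Together the genes took up 0.355% of a DMSO library and 0.369% of a PARGi library on average.

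The ratio of large-subunit to small-subunit reads was 1.479 ± 0.0128 in the control libraries and 1.480 ± 0.0157 in the treated ones (SD, n = 3 each), with libraries of either group interleaved. The median log2 fold change of the large subunit was lower than that of the small subunit by 0.022 (a difference of -0.022). This difference was -0.0098 without PARGi replicate 3 and -0.011 without PARGi replicate 2. Library by library, the median deviation of the large-subunit genes minus that of the small-subunit genes was 0.016, 0.0014 and -0.0052 in DMSO and -0.029, -0.033 and -0.0089 in PARGi. The SD of these library values within a group, pooled over the 2 groups, was 0.012. On this measure, unlike the ratio of reads, every PARGi library lay below every DMSO library. No test of that difference was made. Symbols do not always follow structure: the proteins of MRPS30 and MRPS18A sit in the large subunit, and MRPS36 was placed in neither subunit and neither class of origin. Grouped by structure, 13 of 50 large-subunit genes rose (median 0.037) and 7 of 26 small-subunit genes (median 0.068). Of genes with a bacterial counterpart 13 of 46 rose (median 0.049), and of mitochondria-specific genes 7 of 30 (median 0.034). MRPS18A and MRPS18B, both among those that rose, were classed as mitochondria-specific and MRPS18C as having a counterpart. All 3 are related to bacterial S18, so the split depends on that choice.

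**Figure D2:**
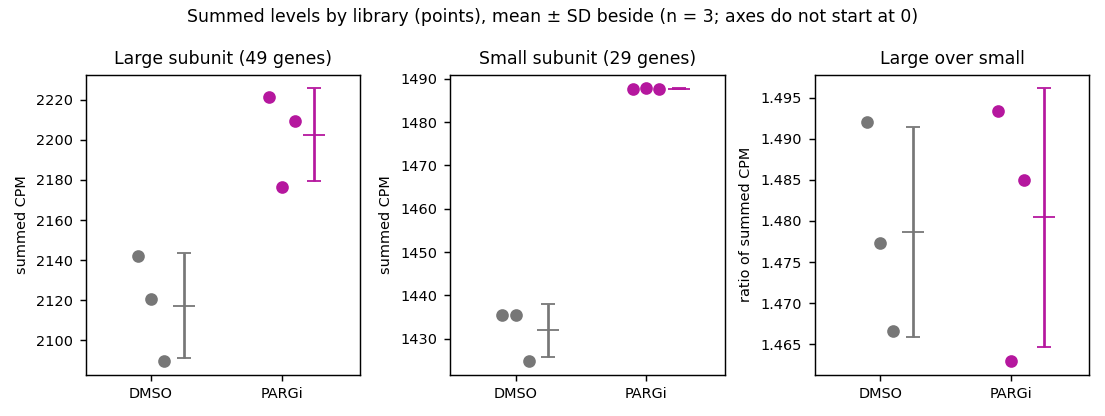
Summed CPM of the large-subunit genes (left), the small-subunit genes (middle) and their ratio (right) in each library, with the mean and SD of 3 libraries beside the points. Both sums are higher in every PARGi library than in every DMSO library, while the ratios of the groups overlap.

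The libraries of a group also differed among themselves. Relative to its own DMSO mean, 61, 50 and 56 of the 77 genes were above it in PARGi replicates 1, 2 and 3. The same count was 51, 41 and 24 in DMSO replicates 1, 2 and 3. DMSO replicate 1 thus had more genes above their DMSO mean than PARGi replicate 2. The median log2 deviation was 0.021 in DMSO replicate 1 and 0.027 in PARGi replicate 2.

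Among the large-subunit genes, MRPL19 had the smallest p. MRPL19 (ENSG00000115364.14, chr2:75646783-75690851, plus strand, GRCh38) encodes the counterpart of bacterial L19, a protein at the face that meets the small subunit. Its levels were 68.3, 68.2 and 67.3 CPM in DMSO and 76.1, 76.8 and 77.1 CPM in PARGi. The groups were well apart, and the gene rose by 0.17 on the log2 scale (SE 0.027, adjusted p = 2.94e-05), or 12.9%. MRPL1 (ENSG00000169288.18, chr4:77862520-77952790, plus strand) encodes the protein of the L1 stalk, next to the site where tRNAs leave. It stood at 28, 27.8 and 28.3 CPM in DMSO and at 31.3, 34.5 and 32.8 CPM in PARGi. Its rise of 0.23 on the log2 scale (SE 0.039, adjusted p = 9.38e-05), or 17.3%, was the largest among the 20 higher genes, and the PARGi libraries were more spread out than the DMSO libraries. MRPL39 (ENSG00000154719.14, chr21:25585656-25607517, minus strand) is mitochondria-specific and related in sequence to a tRNA synthetase. It stood at 33.4, 33.3 and 31.8 CPM in DMSO and at 37.7, 36.9 and 37.8 CPM in PARGi, again without overlap. MRPL39 rose by 0.19 (SE 0.035, adjusted p = 0.000221), or 14.2%.

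Another 5 large-subunit genes were among the 12 with the smallest p. MRPL16 (ENSG00000166902.5, chr11:59806135-59810872, minus strand), the counterpart of a bacterial protein close to the peptidyl transferase centre, stood at 40.3, 40.1 and 41.3 CPM in DMSO and 44.2, 44.5 and 45.1 in PARGi (log2 fold change 0.14, SE 0.032, adjusted p = 0.00263). MRPL15 (ENSG00000137547.9, chr8:54135210-54147901, plus strand), the counterpart of bacterial L15, stood at 34.2, 36.1 and 33.3 CPM in DMSO and 39.9, 37.6 and 37.6 in PARGi (0.15, SE 0.038, adjusted p = 0.00432). In both genes the lowest PARGi library was above the highest DMSO library. MRPL37, MRPL49 and MRPL41 are mitochondria-specific. MRPL37 (ENSG00000116221.15, chr1:54184041-54225464, plus strand) went from 104 ± 0.625 to 113 ± 4.02 CPM (SD, n = 3 each; 0.12, SE 0.028, edgeR adjusted p = 0.0036). MRPL49 (ENSG00000149792.9, chr11:65122183-65127371, plus strand) went from 92.9 ± 0.699 to 100.0 ± 1.5 CPM (0.11, SE 0.026, edgeR adjusted p = 0.00395). MRPL41 (ENSG00000182154.8, chr9:137551199-137552555, plus strand) encodes a protein near the exit of the peptide tunnel. It went from 66.8 ± 2.47 to 72.5 ± 3.03 CPM (0.12, SE 0.033, edgeR adjusted p = 0.0119), and its lowest PARGi library, 70.1, was above its highest DMSO library, 68.5.

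In the small subunit, MRPS2 led. MRPS2 (ENSG00000122140.11, chr9:135499984-135504673, plus strand) encodes the counterpart of bacterial S2. It stood at 51.4, 50.8 and 51.7 CPM in DMSO and at 59.7, 58.3 and 57.5 CPM in PARGi. The groups were far apart for their spread, with a rise of 0.19 on the log2 scale (SE 0.029, adjusted p = 3.79e-05), or 14.0%. MRPS15 (ENSG00000116898.12, chr1:36455718-36464437, minus strand), the counterpart of an rRNA-binding bacterial protein, stood at 54.6, 57.4 and 54.1 CPM in DMSO and 59.2, 63.8 and 62.5 in PARGi (0.16, SE 0.033, adjusted p = 0.000803). MRPS6 (ENSG00000243927.6, chr21:34073224-34143034, plus strand), the counterpart of bacterial S6, stood at 22.7, 21.5 and 22.4 CPM in DMSO and 24.1, 24.8 and 25.9 in PARGi (0.17, SE 0.041, adjusted p = 0.00411). All PARGi libraries of both genes were above all DMSO libraries. MRPS6 shares 6.35% of its exonic bases with the more abundant SLC5A3 on the same strand, so part of its count is uncertain.

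**Figure D3:**
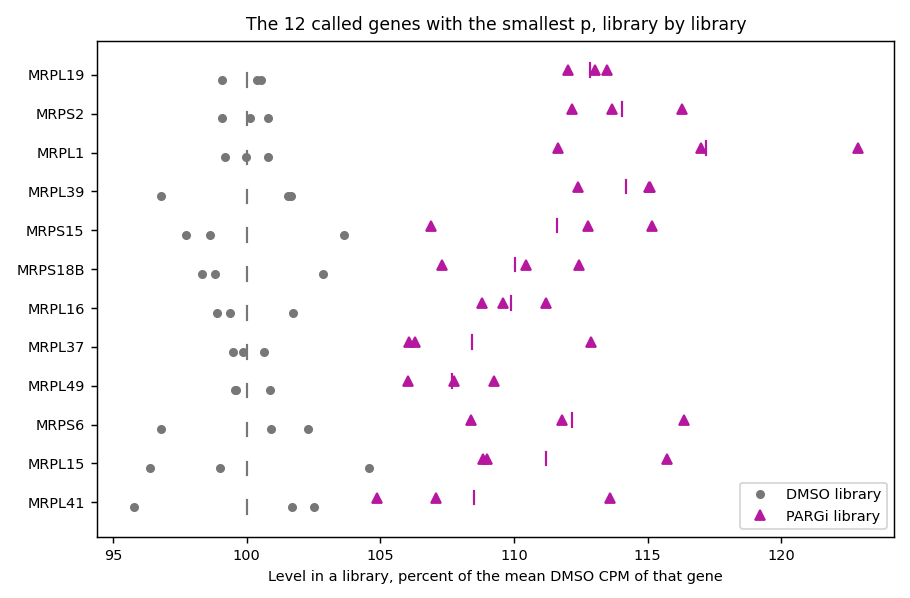
Level of each of the 12 higher genes with the smallest p in every library, as a percent of that gene's mean DMSO CPM (x axis), with DMSO libraries as circles, PARGi libraries as triangles and group means as vertical bars. In all 12 genes the PARGi libraries lie to the right of the DMSO libraries without overlap.

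The other 8 higher genes rose by 6.03% to 8.82%, with adjusted p from 0.015 to 0.0481. One of them, MRPS18A, is described with its paralogs, and the others were chosen after their values were seen. They are MRPS11, MRPS9 and MRPS22 in the small subunit and MRPL11, MRPL4, MRPL9 and MRPL28 in the large subunit. MRPL11 belongs to the base of the stalk that binds translation factors, and MRPL4 lines the peptide tunnel. MRPS9 went from 67.5 ± 0.888 to 71.7 ± 0.108 CPM (SD, n = 3 each; edgeR adjusted p = 0.0211). MRPL28, from 66.5 ± 1.43 to 70.5 ± 2.6 CPM (edgeR adjusted p = 0.0481), was alone among the 20 in having overlapping groups. MRPL28 also shares 7.33% of its exonic bases with another gene on its strand. It lost its call in 11 of 18 other fits, and 9 of the 20 genes lost theirs in at least 1.

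The 3 genes that missed the threshold most narrowly had estimates above 0. MRPS21, with 48.3 ± 1.45 CPM in DMSO and 51.3 ± 1.6 in PARGi, had a log2 fold change of 0.088 (95% interval 0.020 to 0.16, edgeR adjusted p = 0.0557). MRPS34 went from 74 ± 2.89 to 78.2 ± 1.77 CPM (0.078, interval 0.015 to 0.14, edgeR adjusted p = 0.0664), with overlapping libraries. MRPL21 went from 21.2 ± 0.357 to 22.8 ± 0.997 CPM (0.11, interval 0.019 to 0.20, edgeR adjusted p = 0.07). MRPL48, chosen after its values were seen, ran the other way. It stood at 26.5, 28.3 and 27.5 CPM in DMSO and at 25.2, 26.3 and 25.7 CPM in PARGi, and its log2 fold change of -0.092 (interval -0.17 to -0.011, edgeR adjusted p = 0.0918) did not pass. MRPL48 passed as lower with upper-quartile scaling (-0.12, adjusted p = 0.0327), with an offset for GC content and length (-0.10, adjusted p = 0.0422) and in the fit on protein-coding genes alone (-0.11, adjusted p = 0.0402).

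MRPS18A, MRPS18B and MRPS18C are 3 paralogs related to a single bacterial small-subunit protein, S18, and their products occupy different places in the mitoribosome. MRPS18B (ENSG00000204568.12, chr6:30617709-30626395, plus strand) stood at 53.4, 55.8 and 53.6 CPM in DMSO and at 60, 58.2 and 61 CPM in PARGi. It rose by 0.14 on the log2 scale (SE 0.031, adjusted p = 0.00162), or 10.1%. MRPS18A (ENSG00000096080.12, chr6:43671303-43687791, minus strand), whose product lies in the large subunit, stood at 57.6, 56.4 and 55.8 CPM in DMSO and at 60.9, 59.5 and 60.5 CPM in PARGi. It rose by 0.091 (SE 0.029, adjusted p = 0.0235), or 6.53%, and neither gene's groups overlapped. MRPS18C (ENSG00000163319.11, chr4:83455932-83469735, plus strand) stood at 38.4, 33.4 and 33.8 CPM in DMSO and at 35.1, 33.1 and 35.4 CPM in PARGi. Its groups overlapped, with a log2 fold change of -0.025 (interval -0.12 to 0.067, adjusted p = 0.738). Whether the 3 paralogs differ in their response was not tested. Per kilobase of exon their DMSO levels were 44.1, 28.8 and 7.23 CPM for MRPS18A, MRPS18B and MRPS18C, and per kilobase of the longest transcript 53.3, 33.7 and 14.2.

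Levels per length spanned a wide range. In DMSO the median over tested genes was 15.2 CPM per kilobase in the large subunit and 14.2 in the small subunit. MRPL14, the counterpart of a bacterial protein at the face between the subunits, was the highest at 140 CPM per kilobase, followed in the large subunit by MRPL51 (72.6) and MRPL41 (52.9). In the small subunit by symbol, MRPS34 (67.5), MRPS16 (58.7) and MRPS18A (44.1) led. These values use the union of a gene's exons as its length. With the longest transcript instead, MRPL14 (140) and MRPL51 (91.2) still led the large subunit, but MRPL3 (68.3), MRPL33 (67.8), MRPL37 (65.7) and MRPL18 (64.7) passed MRPL41 (52.9), while the same 3 genes led the small subunit. High level and a rise did not always go together. MRPL14 stood at 134 ± 3.31 CPM in DMSO and 137 ± 2.44 in PARGi (log2 fold change 0.026, interval -0.029 to 0.081, edgeR adjusted p = 0.532). For MRPS16 the log2 fold change was -0.013 (interval -0.065 to 0.039, adjusted p = 0.767), and for MRPL51 0.019 (interval -0.033 to 0.072, adjusted p = 0.641). With an offset for GC content and length, MRPL14 (0.078, adjusted p = 0.0131) and MRPL51 (0.067, adjusted p = 0.0336) passed as higher. Of the genes at or above the median level, 15 of 39 rose (median 0.073), and of those below it, 5 of 38 (median 0.027). The same split was not made for all tested genes, so it is not known to be particular to mitoribosomal genes. The SE shrank with depth, from 0.092 to 0.20 for the 7 tested genes under 5 CPM to 0.025 to 0.057 for the other 70, so the median rise of the 20 higher genes (8.59%) would not be detectable at the depth of the former. Across the 77 genes, the log2 fold change had a Pearson correlation of 0.30 with log2 level (Spearman 0.27), -0.087 with GC content and 0.0081 with log2 length. These are descriptions across genes measured in the same libraries.

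The lowest genes carried a common feature of annotation. Among the 8 mitoribosomal genes under 5 CPM in DMSO, 7 share at least 10% of their exonic bases with another annotated gene on the same strand, against 3 of the 70 others. MRPL12, whose product forms the stalk that recruits translation factors, shares 68.2% with another protein-coding annotation that is listed at 0 counts, and had only 125 to 166 counts per library. MRPL53 shares 45.2% with CCDC142, which had 1165 to 1639 counts. MRPL38 (37.5%), MRPS28 (35.8%), MRPS24 (23.2%), MRPS17 (21.8%) and MRPL46 (11.3%) are the rest. How reads that fall in such shared bases were counted is not given in the sources used here, so the levels of these genes are uncertain. MRPL2 was the exception, as it shares no such bases, but overlap on the opposite strand was left out of the results. It was the lowest tested gene per length at 0.289 CPM per kilobase, followed by MRPL46 at 0.317. Per length of the longest transcript the order turned, with MRPL46 at 0.367 and MRPL2 at 0.463. MRPL2 had 0.735 ± 0.0934 CPM in DMSO against 0.733 ± 0.0656 with the inhibitor (SD, n = 3 each; edgeR adjusted p = 0.995). None of the 9 tested genes that share at least 10% passed the test, against 20 of the 68 below that share (medians 0.025 and 0.039). Among the 20, MRPS6, MRPL9 and MRPL28 share smaller parts of their exonic bases. Most of the 9 were under 5 CPM, where a rise of 8.59% would not be detectable, so sharing and depth cannot be told apart here. Pseudogene copies took few reads. The largest, MRPS31P5 and MRPS31P4, had 5.16% and 3.73% of the counts of MRPS31.

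**Figure D4:**
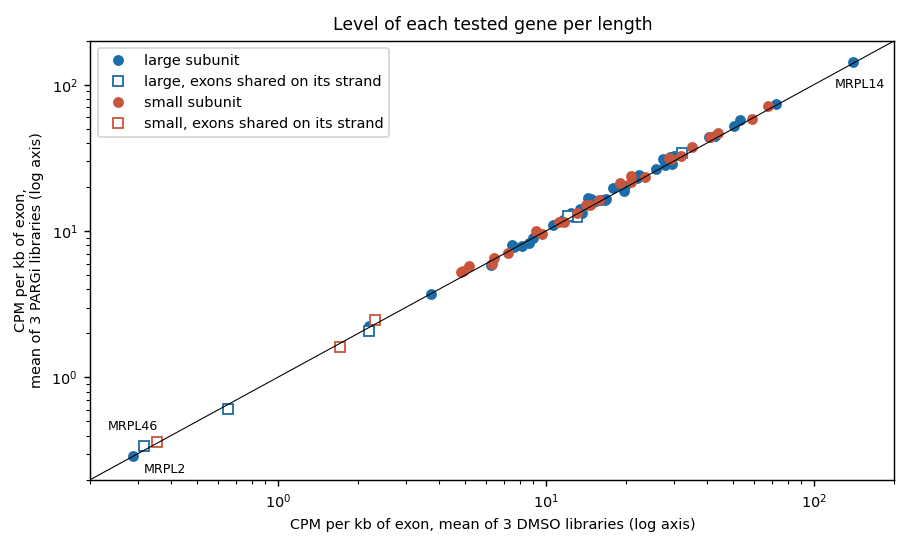
Mean CPM per kilobase of exon in PARGi (y axis) against DMSO (x axis) for the 77 tested genes, both on log axes, with the line of equal levels. Open squares are genes that share at least 10% of their exonic bases with another gene on the same strand, and MRPL46 and other open squares follow directly above MRPL2, the lowest point.

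Mitoribosomal genes often sit back to back with another gene. Of the 77, 17 (22.1%) have the start of an opposite-strand protein-coding gene within 1000 bases upstream, against 9.03% of 14504 tested protein-coding genes. Among the 20 that rose, 2 do. Of 16 such neighbours that could be tested, 3 rose and 0 fell, near the 17.6% of protein-coding genes that rose (12.2% fell), and 1 of the 3 is itself a mitoribosomal gene. SKA3, a kinetochore gene next to MRPL57, rose by 0.18 on the log2 scale (SE 0.033, adjusted p = 0.000328). EME1, a DNA repair nuclease gene next to MRPL27, rose by 0.26 (SE 0.042, adjusted p = 4.94e-05). The mitoribosomal gene among the 3 is MRPS11, which faces MRPL46 with their starts 34 bases apart. SKA3 and EME1 were chosen after their values were seen, and MRPL57 and MRPL27 were not among the 20.

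Other lists of the mitochondrial translation apparatus gave few calls. The 5 mitoribosomal proteins with other symbols (DAP3, PTCD3, AURKAIP1, CHCHD1 and GADD45GIP1) gave 0 higher and 0 lower genes, with a median log2 fold change of 0.047, beside 0.039 for the 77. Among 30 assembly factors and rRNA-modifying enzymes, 5 rose (16.7%, beside 13.2% of all genes and 17.6% of protein-coding genes) and 2 fell (6.67%, beside 11% and 12.2%), with a median of 0.047. ERAL1, a chaperone of the small-subunit rRNA, rose from 59.3 ± 1.24 to 64.4 ± 1.53 CPM (SD, n = 3 each; log2 fold change 0.12, edgeR adjusted p = 0.00421). C1QBP, a matrix protein needed for mitochondrial translation, rose from 81.6 ± 0.739 to 88 ± 2.22 CPM (0.11, edgeR adjusted p = 0.00539). With upper-quartile scaling 2 were higher and 3 lower, and DESeq2 or the fit without DMSO replicate 1 gave 4 calls in place of 7.

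Among 15 translation factors 1 rose and 1 fell (6.67% each; median -0.0071). OXA1L, which inserts new chains into the inner membrane, fell from 91.6 ± 2.72 to 84.5 ± 1.9 CPM (-0.12, edgeR adjusted p = 0.00423). GFM2, a factor that helps to split the ribosome after termination, rose from 40.1 ± 0.671 to 43.7 ± 1.77 CPM (0.12, edgeR adjusted p = 0.0116). This list gave 2 higher and 2 lower genes with the GC and length offset, 1 higher and 3 lower with upper-quartile scaling, 5 calls without DMSO replicate 3, and 1 without PARGi replicate 1, 2 or 3. Among 21 genes of mitochondrial tRNA charging 2 rose (9.52%) and 1 fell (4.76%), with a median of 0.057, and with upper-quartile scaling 1 was higher and 2 lower. AARS2, the alanyl-tRNA synthetase, rose from 54.2 ± 2.84 to 60.3 ± 1.49 CPM (0.15, edgeR adjusted p = 0.00197). Among 20 genes of mitochondrial DNA maintenance, transcription and RNA processing 2 rose (10%) and 0 fell, with a median of 0.034. They were ELAC2, which trims tRNA precursors (0.12, adjusted p = 0.00369), and POLG, the mitochondrial DNA polymerase (0.10, adjusted p = 0.0193), and 1 call was left without DMSO replicate 2 or PARGi replicate 3. The GC and length offset gave 3 higher and 1 lower. The shares of higher genes in these 3 lists were below the 13.2% of all genes.

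The RNAs that the mitoribosome reads or is built on are encoded in mitochondrial DNA. Of these 15 mRNAs and rRNAs, 0 were higher and 6 lower (median -0.046), where 13.2% of all genes were higher and 11% lower. MT-ND5 stood at 1734, 1648 and 1614 CPM in DMSO and at 1526, 1491 and 1505 CPM in PARGi (-0.14, adjusted p = 0.000161), and MT-ND1 at 1768, 1622 and 1565 against 1533, 1425 and 1475 (-0.16, adjusted p = 0.000854). The count depended on the fit: 2 were higher and 3 lower with the GC and length offset, 2 higher and 6 lower without a count filter, 3 lower with DESeq2 and 2 lower with robust dispersions. It also rested on single libraries: 3 were called without DMSO replicate 1 or PARGi replicate 2, and 11 (10 lower, 1 higher) without DMSO replicate 3. Of 79 tested nuclear genes for respiratory chain and ATP synthase subunits, 4 were higher (5.06%) and 5 lower (6.33%), both below the shares of all genes (median -0.0019). UQCRC2 of complex III rose (0.14, adjusted p = 0.000801) and COX7B of complex IV fell (-0.18, adjusted p = 0.00151). The balance turned with the fit: 8 were higher and 6 lower with the GC and length offset, and 2 higher and 8 lower with upper-quartile scaling. Without PARGi replicate 2 there were 3 higher and 1 lower, without PARGi replicate 3 there were 2 and 3, and without DMSO replicate 3 there were 3 and 11.

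Genes of the cytosolic ribosome, which does the same work outside mitochondria, mostly had estimates below 0 (77 of 82 tested). By comparison, 10600 of all 20409 tested genes and 6705 of 14504 protein-coding genes had estimates below 0. Of the 82, 2 were higher (2.44%) and 34 lower (41.5%), where 13.2% of all tested genes were higher and 11% lower. The median log2 fold change of the 82 was -0.072. Among the 77 mitoribosomal genes, 20 were higher (26.0%) and 0 lower. RPL13A, of the large cytosolic subunit, stood at 1345, 1364 and 1289 CPM in DMSO and at 1212, 1185 and 1180 CPM in PARGi (-0.16, adjusted p = 2.7e-05). RPS27L, a paralog of a small-subunit protein and a known p53 target, rose from 134 ± 5.27 to 178 ± 1.63 CPM (SD, n = 3 each; 0.40, edgeR adjusted p = 1.37e-10). The lower calls numbered 16 without DMSO replicate 1, 6 without PARGi replicate 2 and 22 without PARGi replicate 3, but 54 without DMSO replicate 3. No test of the difference between the lists was made.

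**Figure D5:**
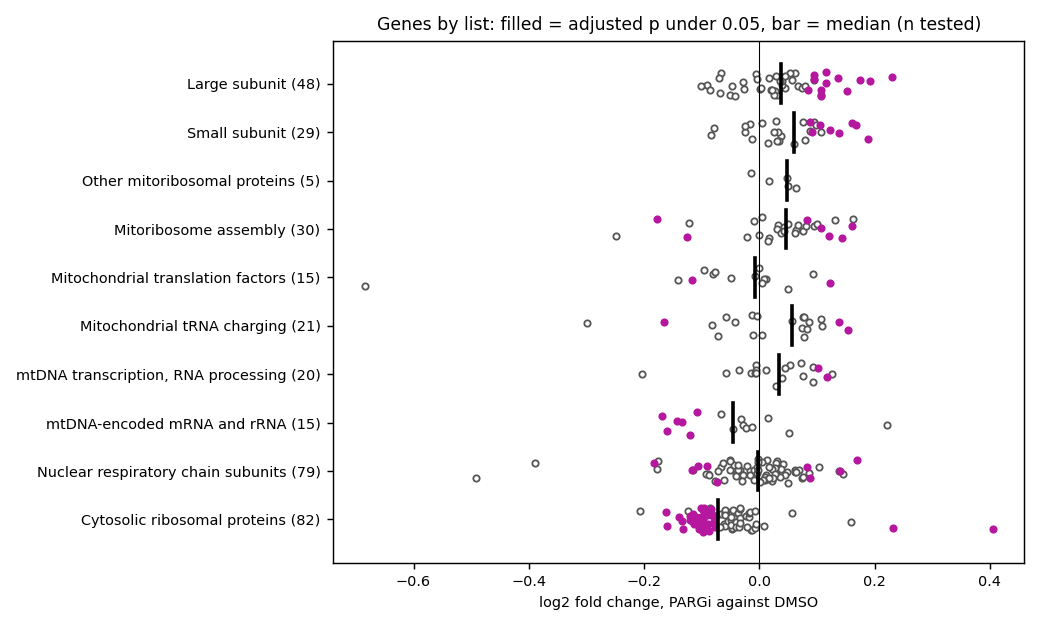
Log2 fold change of PARGi against DMSO (x axis) for every tested gene of the 2 subunits and 8 related lists, with filled points for an adjusted p under 0.05 and a bar at each list's median. The subunit medians (0.037 and 0.060) lie above 0 and the median of the cytosolic ribosomal proteins (-0.072) lies below.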

How the data were processed

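RNA was sequenced from 3 DMSO and 3 PARGi libraries of U2OS cells, made with the TruSeq Stranded Total RNA kit per the labels' protocols. What the authors deposited are whole-number read counts per gene, without normalisation. Per the submitters' processing notes the build was hg38 and the tools were cutadapt 1.18, STAR 2.7.3a, SAMtools 1.9, deepTools and DESeq2, listed as 3.12. The annotation release and the treatment of reads shared between genes are not given in the sources used here. Groups came from the sample titles. A gene name table gave symbols for 60463 of 60708 identifiers, and biotypes, positions, lengths and overlaps from GENCODE 29 on GRCh38 (58440 identifiers), matched without version suffix.

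Counts were filtered with filterByExpr, scaled by TMM and tested two-sided with glmQLFit and glmQLFTest of edgeR 4.0.16, run in R 4.3.3, with treatment as the only term over all 6 libraries, adjusted by Benjamini-Hochberg over 20409 genes at 0.05. The SE is the absolute log2 fold change over the square root of F, and intervals are at 95%. CPM values carry the SD of 3 libraries. Lists were described by counts and medians and not tested. With no molecular identifiers in the labels, reads were not taken as independent molecules. No per-sample column was left unused and 0 rows named no gene. The code was tested on simulated counts.

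The genes and lists were chosen with earlier results of these data known. Named are the 12 higher mitoribosomal genes with the smallest p, the 3 uncalled ones with the smallest p, the 3 highest per length in each subunit, the 2 lowest tested, MRPS18A to MRPS18C, any untested one, and up to 2 called genes with the smallest p in each related list. An item that this rule selects is not reported here. Alternatives were DESeq2 1.42.0, limma-voom (limma 3.58.1), DESeq2 size factors, upper-quartile scaling, no filter, protein-coding genes alone, a minimum of 10 counts everywhere, robust dispersions, a replicate block, a loess offset on GC content and length (span 0.3), both together, pseudogene counts added, an adjusted p under 0.01, the longest transcript as length, and each library left out. Leaving out genes that share at least 10% of their exonic bases was added after seeing the data. Figures were drawn with matplotlib 3.10.9. A comparison of the MRPS18 protein sequences was not analysed here.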

Additional observations from a re-analysis of the deposited data

How the results depend on the processing

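The count of 20 higher mitoribosomal genes was 18 with DESeq2 and 19 with limma-voom. It was 13 (12 higher, 1 lower) with upper-quartile scaling and 11 at an adjusted p under 0.01, which is stricter by construction. With 1 library left out it ran from 13 (without PARGi replicate 3) to 19, and without PARGi replicate 1 it was 14; such fits have fewer samples. The GC and length offset gave 26 higher and 1 lower, and MRPS21 (0.13, adjusted p = 0.00102) and MRPS34 (0.12, adjusted p = 0.00163) passed there. The share of all tested genes called was worked out only for TMM and upper-quartile scaling, so the other counts have none beside them. The median log2 fold change of 0.039 was 0.014 with upper-quartile scaling, 0.023 (19 higher, 1 lower) in the fit on protein-coding genes alone, 0.059 with the GC and length offset and 0.059 with that offset and the replicate block, and 0.030 (without DMSO replicate 3) to 0.058 (without DMSO replicate 1) with 1 library left out. The log2 ratio of summed levels, 0.056, was 0.031 with upper-quartile scaling and 0.049 to 0.062 with 1 library left out. The large minus small difference of -0.022 ran from -0.030 to -0.0098 with 1 library left out, and was -0.031 with subunits by structure or without genes that share exonic bases. The cause of these shifts was not tested. No direction was reversed for a called gene, and 11 of the 20 genes kept their call in all 18 fits.

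Both groups carry replicate numbers 1 to 3, but same-numbered libraries deviated from their group means with correlations of -0.0071, 0.016 and -0.0084, so the numbers were not taken as pairs; the replicate block gave 19 higher genes. Depth limits the genes under 5 CPM, whose SE reached 0.20. At 3 libraries a group, each p-value sets a difference against the spread between these libraries, estimated with information from all tested genes. Spread beyond these libraries is not covered.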
